A study of Mus musculus with 9 samples.

Results

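The genes described here are 34 genes by which endothelial cells, the cells that line blood vessels, are recognised across vessel types. They were chosen as the rows of the deposited table that carry 1 of 34 listed symbols and have a mean of at least 10 normalized counts over the 9 libraries. All 34 symbols were found and all 34 passed that minimum, of 57180 genes in the table and 17036 with such a mean. The minimum uses the mean over both genotypes, and the question was whether vessel content differs between them.

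RNA-seq was done on whole hippocampus of 11-day-old C57BL6 mice. The cKO group (n = 4, 3 males and 1 female) carried a conditional knockout of Slc38a3, the gene of the glutamine transporter SNAT3, directed to endothelial cells, and the WT group (n = 5, 1 male and 4 females) was wild type. The sources used here do not give the Cre driver, the deleted exons, the alleles that WT animals carried or the litters. Nothing says that the samples are of separate litters, so a p-value covers only the spread among the 9 samples, which are numbered within each group. Since most cKO animals were male and most WT animals female, sex entered the fits as a term.

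Endothelial identity is held by a small set of transcription factors of the ETS and SOXF families, which switch on genes for cell junctions, receptors for vessel growth signals and the sugar-coated surface that faces the blood. In the brain the same cells also form the blood-brain barrier, and in the second postnatal week the hippocampal vessel bed is still growing. Most of these transcripts are much richer in endothelium than in other brain cells, so their level in whole tissue is used as a measure of vessel content. In bulk RNA, however, fewer endothelial cells and less of a transcript per cell cannot be told apart. Some members are also made elsewhere: S1pr1 in astrocytes, Podxl in neurons, Cd34 in fibroblasts, and Fli1 and Ets1 in blood cells.

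The promoters of 5 members are shown because these genes mark the contrast within the list: the cKO and WT libraries of Eng, Cd34 and Adgrl4 did not overlap, and those of the paired receptor genes Tie1 and Tek did. Each is the 250 bases before the RefSeq start, 5′ to 3′ on the gene's strand, in build GRCm38.p6, which is not the build of the deposited positions. Capitals mark AGGAAG or CGGAAG on either strand (CTTCCT or CTTCCG on the other), letters around the GGAA core that ETS factors bind. The positions are chr2:32646345-32646594 (plus strand) for Eng, chr1:194938571-194938820 (plus) for Cd34, chr3:151437632-151437881 (plus) for Adgrl4, chr4:118489850-118490099 (minus) for Tie1 and chr4:94739039-94739288 (plus) for Tek.
Eng: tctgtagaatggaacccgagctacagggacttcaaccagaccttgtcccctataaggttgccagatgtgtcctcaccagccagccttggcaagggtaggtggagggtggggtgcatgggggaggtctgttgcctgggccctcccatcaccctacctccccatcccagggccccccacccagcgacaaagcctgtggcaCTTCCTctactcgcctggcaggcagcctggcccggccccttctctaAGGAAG
Cd34: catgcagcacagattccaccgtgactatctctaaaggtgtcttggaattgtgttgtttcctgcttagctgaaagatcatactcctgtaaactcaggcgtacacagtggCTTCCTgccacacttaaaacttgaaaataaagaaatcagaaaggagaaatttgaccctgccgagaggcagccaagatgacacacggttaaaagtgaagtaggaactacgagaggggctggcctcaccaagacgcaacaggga
Adgrl4: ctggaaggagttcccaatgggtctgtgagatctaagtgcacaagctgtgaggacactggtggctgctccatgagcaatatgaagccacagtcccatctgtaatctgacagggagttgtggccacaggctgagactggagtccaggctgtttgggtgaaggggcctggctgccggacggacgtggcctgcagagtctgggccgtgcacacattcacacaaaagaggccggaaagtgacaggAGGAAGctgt
Tie1: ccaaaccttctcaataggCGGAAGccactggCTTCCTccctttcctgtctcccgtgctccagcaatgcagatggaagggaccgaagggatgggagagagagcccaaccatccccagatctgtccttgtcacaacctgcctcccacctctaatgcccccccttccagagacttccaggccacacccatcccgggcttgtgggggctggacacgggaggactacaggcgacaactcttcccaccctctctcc
Tek: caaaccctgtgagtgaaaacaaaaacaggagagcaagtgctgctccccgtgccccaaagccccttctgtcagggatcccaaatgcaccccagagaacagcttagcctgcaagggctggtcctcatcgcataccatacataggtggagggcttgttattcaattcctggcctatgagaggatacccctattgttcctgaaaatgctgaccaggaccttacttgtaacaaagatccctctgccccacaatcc
Eng held 2 matches to AGGAAG, Cd34, Adgrl4 and Tie1 1 each, and Tie1 also 1 match to CGGAAG, while the Tek window held 0. Of the 34 members, 14 are in the RefSeq promoter table, with 19 windows. Egfl7, Erg and Ly6c1 have more than 1 window each, and those of Ly6c1 overlap. Ets1 and Podxl, whose cKO and WT libraries also did not overlap, are not in it. AGGAAG was in 13 of these 19 windows and in 29.5% of all 32851 windows of the same length, and CGGAAG in 1 of 19 and in 13.6% of all. A match describes the letters and does not show that a factor binds there. Whether matches go with the change in cKO was not tested.

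The targeted gene checked the labels. Slc38a3 (chromosome 9, 107527832 to 107546729 in GRCm39) was at 308 to 405 normalized counts in the 4 cKO libraries and 1804 to 3514 in the 5 WT libraries (log2 fold change -2.99 ± 0.221, SE, limma adjusted p = 5.54e-05, exact two-sided permutation p = 0.00794 over all 126 splits, the smallest this design allows). The libraries held 30803135 to 34034530 reads. Each member had 73 to 3614 reads in every library, so counting error alone was 1.75% to 10.7% of a member's mean, and the spread within groups was 2.32% to 17.9%. The median spread was 8.40%. Markers of hippocampal neurons were present in every library, with Prox1, a marker of dentate granule cells, at 6665 normalized counts in cKO and 6880.1 in WT.

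As a group the endothelial identity genes lay slightly lower in cKO, and no single member passed the test. The 34 genes summed to 20606, 22349, 22240.4 and 20512 normalized counts in cKO replicates 1 to 4 and to 22804, 23445, 24063, 22141 and 22719 in WT replicates 1 to 5. The groups overlapped in this sum: cKO replicates 2 and 3 lay within the WT range at its lower end, and cKO replicates 1 and 4 lay below it. That overlap depended on single genes, a check made after the values were seen. Without S1pr1, the most counted member, the sums were 17313 to 18902 in cKO and 18984 to 20754 in WT and did not overlap, with cKO at 0.914 of WT. Without Vwf they were 19535 to 21230.3 in cKO and 21257 to 22945 in WT and did not overlap either. With any other of the 34 members left out the sums overlapped. S1pr1 and Vwf both had a higher mean in cKO, so leaving out either could only lower the ratio of cKO to WT. In the mean of the log2 levels, which weighs each gene alike, cKO replicates 1, 3 and 4 (8.67, 8.74 and 8.605) were below all 5 WT libraries (8.76 to 8.90), and cKO replicate 2 (8.81) lay among them. The mean sum was 21427 ± 1004 (SD, n = 4) for cKO against 23034 ± 738 (SD, n = 5) for WT, and cKO held 0.930 of the WT level. The mean was lower in cKO for 30 of the 34 members and higher for Clec14a, Tek, S1pr1 and Vwf.

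Taken gene by gene, 0 of 34 members rose and 0 fell (limma-trend on log2(normalized count + 1) with sex as a term, Benjamini-Hochberg adjusted over 17036 genes). By edgeR's quasi-likelihood test on the recovered reads 0 also passed. By DESeq2 3 passed, all lower, where DESeq2 called 132 of the 17036 genes lower and 68 higher. By limma 0.346% of all genes tested passed, of which the lower made 0.223% and the higher 0.123%. At an unadjusted p under 0.05, 6 members were lower and 1 was higher, where 6.40% and 4.94% of all genes were. The fitted log2 fold change was below 0 for 25 of 34 members, against 51.2% of all genes. Its median over the members was -0.092, a level of 0.938 of WT, and its median over all genes was -0.0034. The cKO libraries were all below the WT libraries for 5 members, Adgrl4, Cd34, Eng, Ets1 and Podxl, against 3.72% of all genes, and all above them for 0, against 2.58%.

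The precision bounds the change in each gene. The SE of a member's log2 fold change was 0.0403 to 0.191, and the 95% interval of each of the 34 members lay within a 1.5-fold change in either direction. For 8 of them it lay within a 1.2-fold change, and for 7 it left out 0. These intervals are not adjusted for the number of genes.

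**Figure D1:**
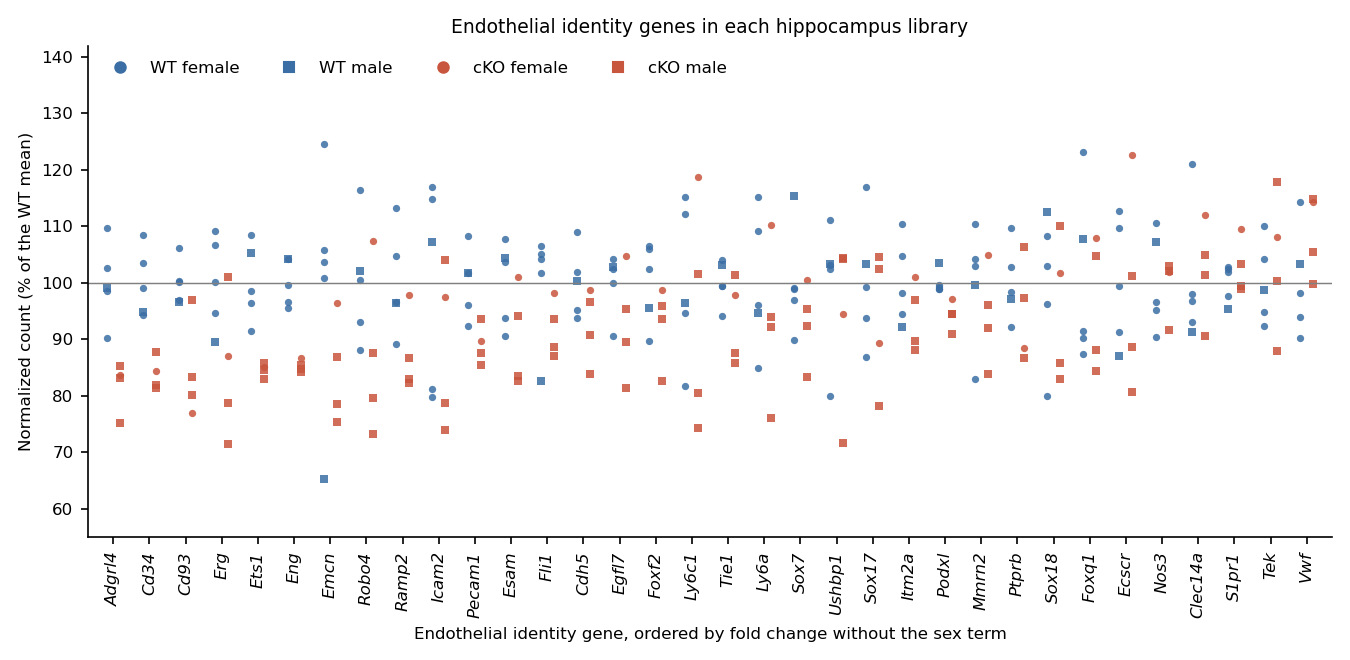
Normalized count of each of the 34 endothelial identity genes in each library, as a percent of that gene's WT mean (circles, females; squares, males; blue, WT; red, cKO). Genes run from the lowest to the highest fold change without the sex term; all cKO points lie below all WT points for Adgrl4, Cd34, Ets1, Eng and Podxl, and for Vwf, Tek and S1pr1 the groups mix.

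The count depended on how sex was treated. Without the sex term 4 members fell, Adgrl4, Cd34, Eng and Ets1, where 0.939% of all genes fell and 0.329% rose. In that fit 30 of 34 members were below 0 and the median was -0.11. In that fit the number that fell was 0 without cKO replicate 1 or without WT replicate 2, and 1 to 3 without any other single library. With the sex term the median moved to -0.013, with 18 of 34 members below 0, without WT replicate 1, the only WT male, and to -0.16, with 27 below 0, without cKO replicate 2, the only cKO female. The genotype effect of these fits rests on females alone (1 cKO, 4 WT) or on males alone (3 cKO, 1 WT). The median was -0.059 without cKO replicate 4. Over all genes the median was -0.0018 without the sex term. With that term it was 3e-04 without WT replicate 1 and -0.0037 without cKO replicate 2. For these fits the share of all genes below 0 was not computed.

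The libraries differed in how high the whole list lay. WT replicate 3 was above a member's median over the 9 libraries for 27 of the 34 genes and held the highest value of 15. At the other end, cKO replicate 4 was below the median for 31 genes and held the lowest value of 13, and cKO replicate 1 was below it for 27 and lowest for 10. In cKO replicate 2, the female, 17 genes were above and 12 below, and in cKO replicate 3 the numbers were 12 and 16. WT replicate 4 was on the low side among WT, with 12 above and 17 below.

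Genes of the endothelial junction and surface numbered 13, of which 9 had a fitted log2 fold change below 0, with a median of -0.082. By limma 0 passed, and 3 were lower at an unadjusted p under 0.05, against 6.40% of all genes. Their summed levels did not overlap between the groups, at 7664 to 8383 in cKO and 8624 to 9249.9 in WT. That gap needed Cd93, which held 1153 of 8346 in cKO replicate 2 and 1499 of 8624 in WT replicate 5. With Cd93 taken off, cKO replicate 2 lay above WT replicate 5, so the sums overlapped. The mean of the log2 levels of the 13 genes also overlapped. There cKO replicate 2 (8.7668) lay above WT replicates 1 (8.7204), 4 (8.7554) and 5 (8.7099). Pecam1 (chromosome 11, 106545042 to 106641454 in GRCm39) encodes CD31, the adhesion molecule most used to stain vessels. Pecam1 held 684, 719, 751 and 702 normalized counts in cKO replicates 1 to 4, against 815, 815, 868, 770.1 and 739.8 in WT replicates 1 to 5. The cKO libraries were at the low end and only cKO replicate 3 overlapped WT, above WT replicate 5. The group means were 714 ± 28.3 (SD, n = 4) for cKO against 802 ± 49.1 (SD, n = 5) for WT, and the log2 fold change was -0.17 (SE 0.0679, adjusted p = 0.366 by limma).

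Cdh5 (chromosome 8, 104828256 to 104871143) encodes VE-cadherin, the cadherin of the endothelial adherens junction. Cdh5 held 786, 854, 836 and 726 normalized counts in cKO replicates 1 to 4, against 869, 882, 943, 824 and 811 in WT replicates 1 to 5. The groups overlapped, with cKO replicates 2 and 3 among the WT values and replicates 1 and 4 below them. The log2 fold change was -0.082 (SE 0.0725, adjusted p = 0.702 by limma), and its 95% interval ran from -0.24 to 0.074.

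Cd34 (chromosome 1, 194621126 to 194643587) and Podxl (chromosome 6, 31496422 to 31540916) encode related sialomucins of the luminal surface, and both had cKO libraries wholly below WT. Cd34 held 903, 936, 973 and 909 normalized counts in cKO replicates 1 to 4, against 1051, 1099, 1046, 1202 and 1147 in WT replicates 1 to 5. Its means were 930.3 ± 32.1 (SD, n = 4) for cKO against 1109 ± 66.1 (SD, n = 5) for WT, and the log2 fold change was -0.22 (SE 0.0609, adjusted p = 0.185 by limma) with the sex term and -0.25 (SE 0.0508, adjusted p = 0.0283 by limma) without it. Podxl held 1283, 1371, 1334 and 1334 normalized counts in cKO replicates 1 to 4, against 1461, 1397, 1397, 1406 and 1400.1 in WT replicates 1 to 5. Its WT libraries lay close together except for the higher WT replicate 1, and the log2 fold change of -0.088 (SE 0.0472, adjusted p = 0.502 by limma) was the closest to 0 among the 5 members whose groups did not overlap.

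Cd93 (chromosome 2, 148278559 to 148285483) encodes a C-type lectin-like receptor of endothelial adhesion and had the lowest fitted estimate of the 34. Cd93 held 1199, 1153, 1451 and 1248 normalized counts in cKO replicates 1 to 4, against 1446, 1591, 1502, 1453 and 1499 in WT replicates 1 to 5. Replicate 3 of cKO reached the low end of WT, and the other 3 cKO libraries lay well below it. The means were 1263 ± 132 (SD, n = 4) for cKO against 1498 ± 58.0 (SD, n = 5) for WT, and the log2 fold change was -0.28 (SE 0.0727, adjusted p = 0.163 by limma). Without cKO replicate 3 it was -0.32 ± 0.0565 and passed (SE, limma adjusted p = 0.0403). By DESeq2 it passed with all libraries (adjusted p = 0.0416).

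Clec14a (chromosome 12, 58311505 to 58316076) and Mmrn2 encode a lectin-like receptor and the matrix protein that it binds. Clec14a held 205, 226, 212 and 183 normalized counts in cKO replicates 1 to 4, against 184, 195, 244, 188 and 198 in WT replicates 1 to 5. WT replicate 3 stood above the other WT libraries, and the cKO libraries lay on both sides of them. The means were 206 ± 18.0 (SD, n = 4) for cKO against 202 ± 24.4 (SD, n = 5) for WT, and the log2 fold change was 0.13 (SE 0.114, adjusted p = 0.709 by limma). Mmrn2 was at 191 ± 18.0 (SD, n = 4) for cKO against 203 ± 20.9 (SD, n = 5) for WT.

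Emcn (chromosome 3, 137046827 to 137137946) encodes endomucin, a sialomucin of capillaries and veins. Emcn held 126, 140.0, 114 and 109 normalized counts in cKO replicates 1 to 4, against 94.7, 146, 181, 151 and 154 in WT replicates 1 to 5. The 4 males of both genotypes, at 94.7 to 126, were all below the 5 females, at 140.0 to 181. The cKO female was the lowest of these females. The difference of males from females did not pass (limma adjusted p = 0.596). The log2 fold change was 0.056 (SE 0.136, adjusted p = 0.906 by limma) with the sex term and -0.22 (SE 0.157, adjusted p = 0.530 by limma) without it, which turned its direction.

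Ly6c1 (chromosome 15, 74915866 to 74920679) and Ly6a encode small lipid-anchored proteins of capillary endothelium. Ly6c1 held 189.9, 304, 259 and 206 normalized counts in cKO replicates 1 to 4, against 246, 287, 294, 242 and 209 in WT replicates 1 to 5. The spread within groups was wide, and the highest value and the lowest were both in cKO. Its log2 fold change was 0.038 (SE 0.151, adjusted p = 0.947 by limma), and it turned negative without the sex term (-0.11). The near-identical neighbour Ly6c2 was listed at 0 to 3.91 normalized counts, and reads could be split between the copies by the counting, so the level of Ly6c1 is uncertain to that extent. The other junction and surface genes, Esam, Icam2, Itm2a and Ly6a, had log2 fold changes of -0.16 to 0.0089, and none passed.

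**Figure D2:**
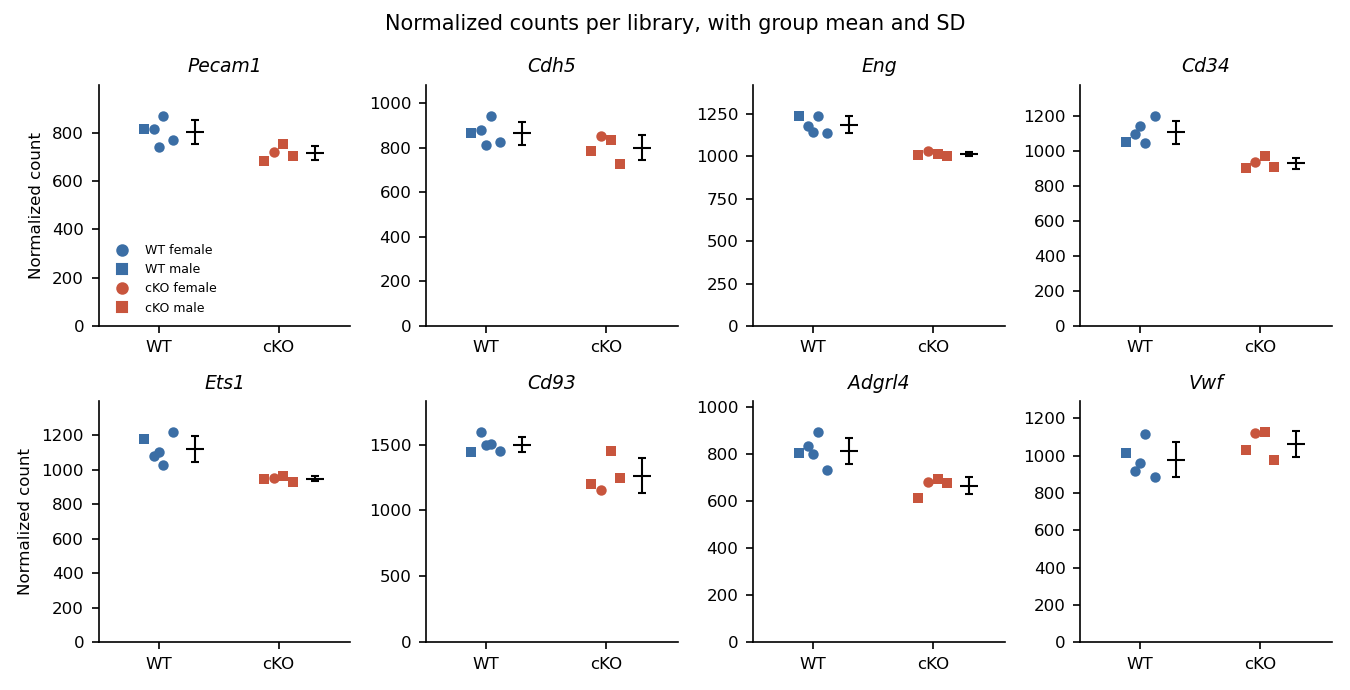
Normalized counts of 8 members in each library (circles, females; squares, males), with the group mean and SD beside the points; every vertical axis starts at 0. For Eng, Cd34, Ets1 and Adgrl4 the cKO points lie below all WT points, for Pecam1, Cdh5 and Cd93 they overlap at the low end, and for Vwf the cKO mean is the higher.

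Among 10 genes of receptors and their signals, 7 had a log2 fold change below 0, with a median of -0.10. By limma 0 passed, and at an unadjusted p under 0.05 2 were lower and 1 was higher, against 6.40% and 4.94% of all genes. Their summed levels overlapped, at 8556 to 9368 in cKO and 8950.3 to 10094 in WT. Eng (chromosome 2, 32536606 to 32572681) encodes endoglin, the endothelial co-receptor for BMP9 and TGF-beta. Eng held 1006, 1030.2, 1015 and 1000.5 normalized counts in cKO replicates 1 to 4, against 1238, 1182, 1238, 1136 and 1146 in WT replicates 1 to 5. The 4 cKO libraries lay close together and below all 5 WT libraries. The means were 1013 ± 12.9 (SD, n = 4) for cKO against 1188 ± 48.7 (SD, n = 5) for WT, and the log2 fold change was -0.24 (SE 0.0526, adjusted p = 0.0821 by limma). Its unadjusted p, 0.000469 by limma, was the smallest among the members. Without the sex term it was -0.23 (SE 0.0429, adjusted p = 0.0200 by limma), and by DESeq2 with the sex term the adjusted p was 0.0216. The annotated locus overlaps Fpgs, a folate enzyme gene at a mean of 325 normalized counts, and the sources used here do not say whether the counting used strand.

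Adgrl4 (chromosome 3, 151143523 to 151250723) encodes ELTD1, an adhesion G protein-coupled receptor of growing vessels. Adgrl4 held 613, 682, 694 and 677 normalized counts in cKO replicates 1 to 4, against 806, 835, 893, 735 and 802 in WT replicates 1 to 5. All 4 cKO libraries were below the lowest WT library, WT replicate 4. The means were 666 ± 36.5 (SD, n = 4) for cKO against 814 ± 57.3 (SD, n = 5) for WT, and the log2 fold change was -0.27 (SE 0.0746, adjusted p = 0.185 by limma) with the sex term and -0.29 (SE 0.0608, adjusted p = 0.0353 by limma) without it.

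Tie1 (chromosome 4, 118328387 to 118347258) and Tek (chromosome 4, 94627525 to 94763213) encode the paired angiopoietin receptors, Tek being the one that binds angiopoietins. Tie1 held 569.8, 638, 659.9 and 558 normalized counts in cKO replicates 1 to 4, against 672, 647, 678, 612 and 647 in WT replicates 1 to 5. Tek held 549, 676, 736 and 626 normalized counts in cKO replicates 1 to 4, against 616, 592, 688, 577 and 651 in WT replicates 1 to 5. Both pairs of groups overlapped, and for Tek the lowest and the highest libraries were both cKO. The log2 fold change was -0.095 (SE 0.0753, adjusted p = 0.664 by limma) for Tie1 and 0.076 (SE 0.0971, adjusted p = 0.803 by limma) for Tek. Ptprb, the phosphatase that acts on the Tie receptors, was at 1527 ± 146 (SD, n = 4) for cKO against 1612 ± 107 (SD, n = 5) for WT.

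S1pr1 (chromosome 3, 115504081 to 115508721), the receptor for sphingosine-1-phosphate that steadies junctions, and Ecscr (chromosome 18), a regulator of endothelial migration, were the members with the highest estimates of this role. S1pr1 held 3215, 3539, 3338 and 3198 normalized counts in cKO replicates 1 to 4, against 3084, 3293, 3309, 3157 and 3322 in WT replicates 1 to 5. Only cKO replicates 2 and 3 were above every WT library, and the log2 fold change was 0.095 (SE 0.0403, adjusted p = 0.400 by limma). Ecscr held 106, 162, 134 and 117 normalized counts in cKO replicates 1 to 4, against 115, 149, 131, 145 and 120.4 in WT replicates 1 to 5. Its range in cKO enclosed that of WT. The log2 fold change of Ecscr was 0.15 (SE 0.131, adjusted p = 0.695 by limma) with the sex term and -0.035 without it. Robo4, Ramp2 and Ushbp1 had log2 fold changes of -0.12 to -0.11, and their groups overlapped.

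Of the 3 genes for secreted factors and enzymes 2 had a log2 fold change below 0 and 0 passed by limma, also at an unadjusted p under 0.05. Vwf (chromosome 6, 125523736 to 125663642) encodes von Willebrand factor, the clotting protein stored in endothelial granules, mostly of larger vessels. Vwf held 1032, 1118, 1123 and 977 normalized counts in cKO replicates 1 to 4, against 1011, 919, 1118, 884 and 961 in WT replicates 1 to 5. The highest WT library, replicate 3, lay among the cKO values, and the lowest cKO library lay among the WT values. The means were 1063 ± 70.9 (SD, n = 4) for cKO against 979 ± 91.2 (SD, n = 5) for WT, and the log2 fold change was 0.13 (SE 0.0829, adjusted p = 0.584 by limma). Egfl7, which encodes a secreted regulator of vessel tubes and hosts miR-126, was at 529.8 ± 56.2 (SD, n = 4) for cKO against 571 ± 31.4 (SD, n = 5) for WT. Nos3, endothelial nitric oxide synthase, was at 460.2 ± 24.6 (SD, n = 4) for cKO against 462 ± 39.3 (SD, n = 5) for WT. Both overlapped between genotypes. Their annotated loci overlap Agpat2, at a mean of 28.8 normalized counts, and Atg9b, at 166, as that of Ramp2 overlaps Vps25, at 24.2.

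Of the 8 transcription factors, 7 had a log2 fold change below 0, with a median of -0.12. By limma 0 passed, and 1 was lower at an unadjusted p under 0.05, against 6.40% of all genes. As for the junction and surface genes, the summed level of the 8 did not overlap between the groups. It was 2227 to 2447 normalized counts in cKO and 2560.3 to 2721 in WT. In the mean of the log2 levels the groups nearly met, at 7.8231 to 8.0003 in cKO and 8.0015 to 8.1343 in WT. Ets1 made a large part of the sum, with 952.8 of 2447 in cKO replicate 2 and 1214.9 of 2657.8 in WT replicate 4. With Ets1 taken off, cKO replicate 2 lay above WT replicate 4, so the sums of the other factors overlapped. Ets1 (chromosome 9, 32547516 to 32669116), the most counted of the 8, encodes an ETS factor shared by endothelium and lymphoid cells. Ets1 held 947, 953, 961 and 929 normalized counts in cKO replicates 1 to 4, against 1179.7, 1080.2, 1024, 1215 and 1103 in WT replicates 1 to 5. The cKO libraries lay close together and below every WT library. The means were 947 ± 13.6 (SD, n = 4) for cKO against 1120.4 ± 76.9 (SD, n = 5) for WT, and the log2 fold change was -0.26 (SE 0.0630, adjusted p = 0.133 by limma) with the sex term and -0.24 (SE 0.0520, adjusted p = 0.0396 by limma) without it. By DESeq2 with the sex term the adjusted p was 0.0302.

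Erg (chromosome 16, 95160027 to 95387452) encodes the ETS factor most restricted to endothelium. Erg held 187, 207, 239.9 and 169.7 normalized counts in cKO replicates 1 to 4, against 212, 253, 259, 225 and 238 in WT replicates 1 to 5. Of the cKO libraries only replicate 3 lay among the WT values, and replicates 1, 2 and 4 lay below all 5. The log2 fold change was -0.17 (SE 0.122, adjusted p = 0.619 by limma), with a 95% interval from -0.44 to 0.088. Fli1, the close relative of Erg, was at 205 ± 11.4 (SD, n = 4) for cKO against 223 ± 22.0 (SD, n = 5) for WT, with the lowest value in the WT male.

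Sox7, Sox17 and Sox18 are the SOXF genes, which act in arterial and lymphatic specification, and Sox17 (chromosome 1, 4561153 to 4567577) is the arterial one. Sox17 held 143, 164, 192 and 188 normalized counts in cKO replicates 1 to 4, against 189, 182, 214, 172 and 159 in WT replicates 1 to 5. The groups overlapped over most of their range. The log2 fold change was -0.14 (SE 0.136, adjusted p = 0.739 by limma) for Sox17, -0.14 (SE 0.113, adjusted p = 0.678 by limma) for Sox7 and -0.099 (SE 0.136, adjusted p = 0.821 by limma) for Sox18. Foxq1 and Foxf2, forkhead genes of brain endothelium of which Foxf2 is also a pericyte gene, were at -0.031 and -0.054 on the same scale.

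**Figure D3:**
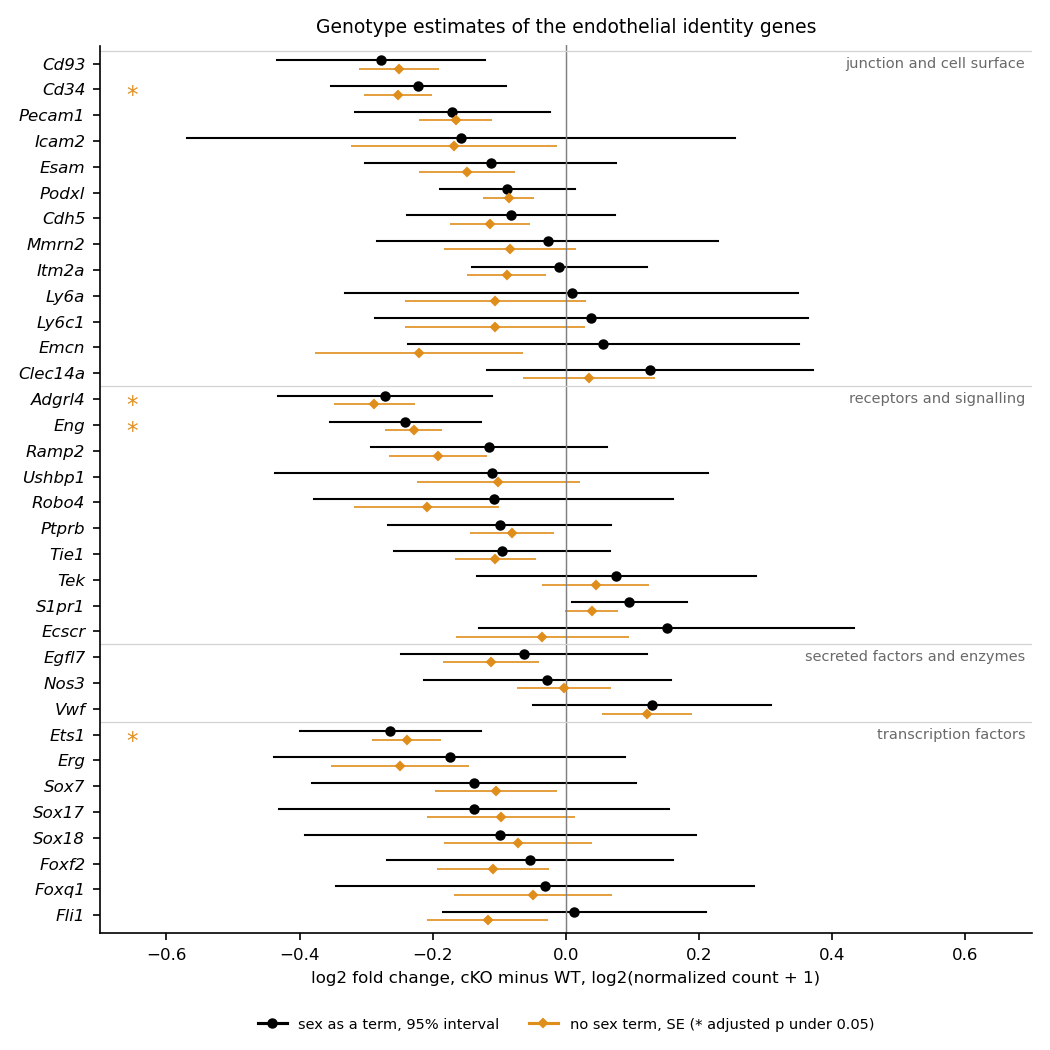
Genotype estimates of the 34 members on the log2(normalized count + 1) scale, grouped by role (black circles, sex as a term, with the unadjusted 95% interval; orange diamonds, no sex term, with the SE; star, adjusted p under 0.05 without the sex term). The estimates with the sex term run from -0.28 for Cd93 to 0.15 for Ecscr, and dropping the term moves Emcn, Ecscr, Ly6a, Ly6c1 and Fli1 from above 0 to below it.

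Levels of different genes were compared per kilobase of exon. S1pr1 was the most abundant member, at 1061 ± 34.9 normalized counts per kilobase in WT (SD, n = 5), followed by Itm2a at 869.8 ± 65.4 and Eng at 293 ± 12.0. Pecam1, at 129 ± 7.88, stood near the middle beside Tie1 and Tek, and Emcn was the least abundant at 26.9 ± 5.79. The first 5 members kept the same order in cKO. Beyond the steps from S1pr1 to Itm2a to Eng to Podxl and from Foxf2 to Ecscr, neighbours in the order overlapped between WT libraries, in 29 of 33 neighbouring pairs.

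Sex was tested in the same fit, since it is partly confounded with genotype. Of the 34 members 0 passed for male against female, where 0.0528% of all genes did, and 5 had an unadjusted p under 0.05, against 6.73% (DESeq2 and edgeR also called 0). The estimate was lower in males for 23 of 34 members, against 49.8% of all genes. Emcn had the smallest of these p-values, with a log2 difference of -0.50 ± 0.136 (SE, limma adjusted p = 0.596). The single cKO female was above all 3 cKO males for 19 members and below them for 1, while the single WT male was below all 4 WT females for 8 and above them for 3. All 3 cKO males were below the WT male for 19 members and above it for 3. The cKO female was below all 4 WT females for 11 and above them for 6. For these counts of positions the shares of all genes were not computed, so they only describe where single libraries lay. For the interaction of sex and genotype 0 members passed and 0 had an unadjusted p under 0.05, where 0.00587% and 7.90% of all genes did.

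Other vessel genes were examined beside the identity genes. Of 30 further pan-endothelial and barrier genes 1 fell and 0 rose, where 0.223% and 0.123% of all genes did. At an unadjusted p under 0.05 8 were lower and 0 higher, against 6.40% and 4.94% of all genes, and for 6 of the 30 all cKO libraries were below all WT libraries, against 3.72%. The estimates of 21 of 30 were below 0, with a median of -0.087, near that of the members. Their sums, 33696 to 35629 in cKO and 35706 to 38613 in WT, did not overlap. The highest cKO sum, of replicate 2, and the lowest WT sum, of replicate 4, were close. Flt1 held 1155 of the first and 1497 of the second, and Kdr 1474 and 1781. With either gene taken off, cKO replicate 2 lay above WT replicate 4 and the sums overlapped. Flt1, which encodes a receptor for VEGF, fell, at means of 1233 ± 86.3 (SD, n = 4) for cKO against 1546 ± 75.9 (SD, n = 5) for WT and a log2 fold change of -0.34 (SE 0.0640, adjusted p = 0.0417 by limma). Its partner Kdr was at 1527 ± 64.9 (SD, n = 4) for cKO against 1798 ± 55.4 (SD, n = 5) for WT, with -0.25 (SE 0.0503, adjusted p = 0.0568 by limma), and did not pass. The tight junction gene Cldn5 was at 1611 ± 143 (SD, n = 4) for cKO against 1710.0 ± 116 (SD, n = 5) for WT. Of 12 angiogenic tip cell genes tested 1 fell, Apln, the apelin gene, at 495 ± 47.1 (SD, n = 4) for cKO against 736 ± 69.7 (SD, n = 5) for WT, with -0.45 (SE 0.0753, adjusted p = 0.0248 by limma). The median of that list was -0.025. Arterial genes (13 tested, 4 below 0, median 0.090) and venous genes (9 tested, 4 below 0, median 0.024) had 0 passing by limma, with 1 arterial and 2 venous genes lower at an unadjusted p under 0.05. The sums of the tip cell, arterial and venous genes overlapped between the groups.

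Markers of mural and other cell types lay on both sides of 0 beside these genes, and their part in the result was not tested. At an unadjusted p under 0.05, 6.40% of all genes were lower and 4.94% higher. Pericytes, which wrap capillaries, had 12 of 14 markers below 0, 0 passing by limma (3 lower at an unadjusted p under 0.05), a median of -0.11 and summed levels of 13745 to 15041 in cKO and 15301 to 16511 in WT that did not overlap. All 10 smooth muscle markers were above 0, with 0 passing (4 higher at an unadjusted p under 0.05), a median of 0.56 and overlapping sums of 1661 to 2502 in cKO and 1534 to 2809.7 in WT. Meningeal fibroblast markers, which come with vessels of the brain surface, had 15 of 17 tested above 0, 0 passing (6 higher at an unadjusted p under 0.05), a median of 0.26 and sums of 9275 to 11529.6 in cKO and 6828 to 11175 in WT. With their mean as a covariate the median over the identity genes was -0.066, with 25 of 34 below 0 and 0 passing.

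Markers of blood and immune cells were read in the same way. Red cell markers summed to 1741 to 2385 in cKO and 2074 to 3449 in WT, with 5 of 6 tested below 0 and a median of -0.17. Of 7 platelet markers 3 were tested, with sums of 75.5 to 97.9 in cKO and 82.8 to 113 in WT, a median of 0.15 and Gp1ba listed at 0 in all libraries. Microglia and leukocyte markers had 9 of 14 tested below 0, a median of -0.061 and sums of 10555 to 11781 in cKO and 11912 to 12375 in WT that did not overlap, and the T cell gene Cd3e was at a mean of 0.111 normalized counts. Across these 3 lists 0 passed by limma, and at an unadjusted p under 0.05 1 red cell and 3 microglial genes were lower, against 6.40% of all genes.

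Markers of choroid plexus epithelium summed to 595 to 33357 in cKO and 604 to 44169 in WT, the widest range of the lists, with 0 of 7 passing by limma (0 also at an unadjusted p under 0.05) and a median of 0.66 that was -0.12 without the sex term. In cKO replicates 1 to 4 the choroid plexus sums were 23351, 3327, 595 and 33357, beside identity sums of 20606, 22349, 22240.4 and 20512. In WT replicates 1 to 5 they were 604, 44169, 10046, 25517 and 2867, beside 22804, 23445, 24063, 22141 and 22719. Whether choroid plexus content went with the identity genes was not tested. Plvap, the gene of the fenestrated vessels of choroid plexus, was at 162 ± 24.4 (SD, n = 4) for cKO against 178 ± 25.5 (SD, n = 5) for WT. Of 10 astrocyte markers Gfap (limma adjusted p = 0.0420) and S100b (0.0141) rose and Aqp4 (0.00206) fell, with a median of 0.077. Of 10 neuron markers 0 passed (1 lower and 2 higher at an unadjusted p under 0.05, against 6.40% and 4.94% of all genes), with a median of -0.024. The neuron marker sums did not overlap either and were lower in cKO, at 158114 to 163337 in cKO and 163765 to 172548 in WT, while the astrocyte sums overlapped. Of the 13 lists outside the identity genes, 4 thus had sums lower in cKO with no overlap: other pan-endothelial, pericyte, microglia and leukocyte, and neuron. For the other pan-endothelial genes this needed both Flt1 and Kdr in the sum. The sums of the remaining lists were not examined with genes left out. In the mean of the log2 levels, only the other pan-endothelial genes of these 4 did not overlap (8.904 to 8.9352 in cKO, 8.9466 to 9.0815 in WT). For pericytes cKO replicate 3 (8.563) lay above WT replicate 4 (8.5478). In cKO replicate 2 the microglia and leukocyte mean (9.0078) was above WT replicate 2 (8.9413). Its neuron mean (13.2019) was above WT replicate 1 (13.1362).

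**Figure D4:**
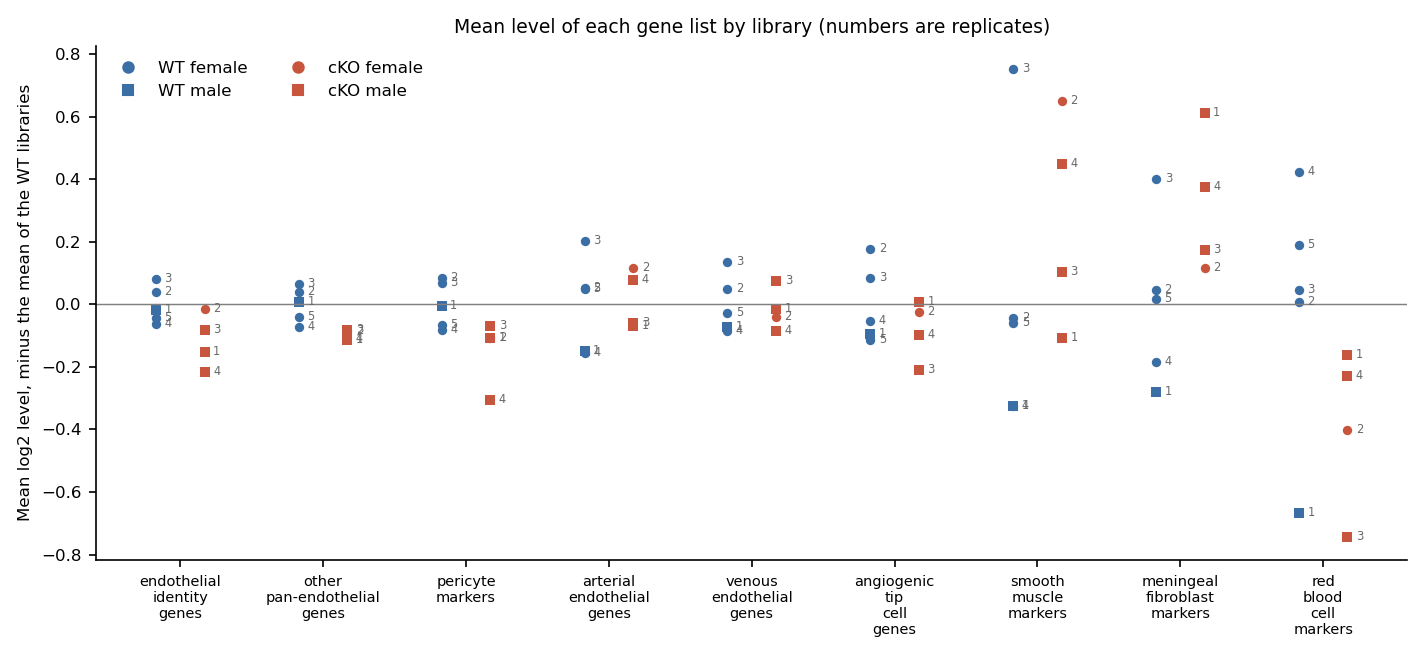
Mean log2 level of each gene list in each library, less the mean of the WT libraries for that list (circles, females; squares, males; numbers, replicates). The identity genes, the other pan-endothelial genes and the pericyte markers lie in a narrow band with all 4 cKO libraries below 0, while smooth muscle, meningeal and red cell markers spread more widely in both genotypes.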

How the data were processed

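RNA-seq of hippocampus from 4 cKO and 5 WT mice was analysed from 1 deposited table of 57180 genes. Libraries came from total RNA with a strand-marking kit, prepared at the same time, per the labels' protocols. The submitters' processing notes list STAR 2.7.10b, cutadapt 4.4, FastQC 0.12.1, DESeq2 1.41.8 and build GRCm39. The sources used here name no counter, annotation release or strand setting, so reads of overlapping genes cannot be told apart. The deposited values are a signal: gene counts that the authors scaled by a size factor for each library and then rounded, as the values themselves show. They compare libraries and not genes, whose lengths differ. Each library's value of 1 read was found from its low values and gave whole reads (within 0.1) for 100.0% of values above 0. The depth was 30803135 to 34034530 reads a library. For 3 libraries (cKO 1, WT 1 and WT 4) that value lay too near 1 to be seen at low values and was read from higher ones.

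Groups and sex came from the labels, and replicate numbers follow record order and pair nothing. Within a group, library pairs had a chi-square per gene of 3.60 to 13.0, so none was taken as a repeat of another. limma-trend (limma 3.58.1, R 4.3.3) was fitted to log2(normalized count + 1) of the 17036 genes whose mean reached 10, with sex and genotype as terms, and p-values were adjusted by Benjamini-Hochberg over all of them (threshold 0.05). Folds on this scale understate changes of low genes. The alternatives used recovered reads in edgeR 4.0.16 and DESeq2 1.42.0, other pseudocounts, filters and scaling, no sex term, 1 sex, a meningeal covariate, and each library left out. Scripts were tested on simulated counts. Exon lengths came from GENCODE M21 by gene ID and promoters from RefSeq, both on GRCm38. Python 3.11.15, pandas 2.3.3, numpy 2.4.6 and matplotlib 3.10.9 did the rest.

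The members, lists, tests and alternatives were chosen with earlier results of these data known. Values by library are given for Pecam1, Cdh5, Tie1, Tek, Erg, Vwf, Sox17 and Ly6c1, for members passing a test, and for the 4 others of smallest p in each direction. Adgrl4 and Podxl were named after their values were seen. From the other lists the text names passing genes, and Kdr, Cldn5, Prox1, Plvap, Cd3e and Gp1ba were named beyond that rule.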

Additional observations from a re-analysis of the deposited data

Results flagged for a closer look

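In 42 groups of 4 or 5 libraries, from Slc38a3, the members given by library and the summed and mean levels of all members, 2 held a library far from the others by Dixon's criterion, which chance gives in about 1 in 20 groups. Clec14a was at 244 normalized counts in WT replicate 3, against 184 to 198 in the other WT libraries. That gap was 0.777 of the range of the group. Podxl was at 1461 normalized counts in WT replicate 1, the only WT male, against 1397 to 1406 in the other WT libraries, a gap of 0.858 of the range.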

How the results depend on the processing

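The count of all genes passing for cKO against WT, 59, was 200 with DESeq2, 216 when sex was left out of the fit, 11 when females alone and 3 when males alone were fitted, 10 with the meningeal covariate and 10 to 65 with 1 library left out. The number of identity genes that fell, 0, was 3 with DESeq2 (Cd93, Eng, Ets1), 4 without the sex term (Adgrl4, Cd34, Eng, Ets1) and 0 to 1 with 1 library left out, the 1 being Cd93 without cKO replicate 3. It was 0 with other pseudocounts, filters, TMM scaling, robust limma, edgeR, each sex alone and the meningeal covariate, and 0 members rose in any of these. Without the sex term and with 1 library left out, chosen after seeing the data, 67 to 300 genes passed (300 without cKO replicate 2, 114 without cKO replicate 3, 168 without cKO replicate 4, 173 when WT replicate 1 and 159 when WT replicate 3 was left out), 0, 1, 2 or 3 members fell and the median over the members was -0.15 to -0.078. The median over the members, -0.092, was -0.013 in females only and -0.16 to -0.013 with 1 library left out, below 0 in every setting run. Slc38a3 passed in every alternative planned for it, at -3.35 to -2.66. The count of genes passing for male against female, 9, was 24 with DESeq2 and 9 to 16 with 1 library left out, and 0 members passed in any of these. Among the members described singly, Emcn turned from 0.056 to -0.22 without the sex term, -0.17 with females alone and -0.13 with the meningeal covariate, and ran from -0.17 to 0.29 with 1 library left out. Ly6c1 turned from 0.038 to -0.11 without the sex term and -0.19 with males alone, and ran from -0.19 to 0.25 with 1 library left out, being -0.0087 without cKO replicate 3 and -0.018 without WT replicate 5. Ecscr was -0.035 without the sex term. The cause was not tested. In fits of 1 sex, or without cKO replicate 2 or WT replicate 1, a lone library is assumed to vary like the others. No paired analysis was possible because the labels give each library a number of its own. Depth limits Ly6a and Icam2 most, whose counting error was 10.7% and 10.3% of the mean.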
